A study of Homo sapiens with 6 samples.

Results

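MHC class I genes encode the machinery that shows peptides from inside the cell to CD8 T cells and natural killer cells. The genes described here are HLA-B, HLA-C and HLA-E, which encode heavy chains, B2M, which encodes their common light chain, TAP1 and TAP2, the subunits of the peptide transporter, TAPBP, which encodes the loading factor tapasin, ERAP1, a peptide-trimming enzyme of the endoplasmic reticulum, and NLRC5, the transactivator of class I genes. They were taken from the table by symbol, and all 9 were found among the 27470 genes of the count table. Peptides made by the proteasome are carried by TAP1 and TAP2 into the endoplasmic reticulum, trimmed by ERAP1 and loaded with the help of tapasin onto a heavy chain paired with B2M. NLRC5 acts at class I promoters together with the RFX complex, and interferon and NF-κB signalling raise the same genes. Prostate cancers are known for low class I expression.

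The RNA came from 22Rv1-ABHD5 cells. 22Rv1 is a line of human prostate cancer that grows without androgen, and the derived cells carry ABHD5, the coactivator of the triglyceride lipase ATGL, under a doxycycline (Dox)-inducible promoter on a lentiviral vector. All 6 libraries came from these transgenic cells, which had been selected with G418; 3 were grown without Dox (labelled control) and 3 with Dox (labelled overexpressing ABHD5), each for 48 h. No parent cells with Dox were analysed here, so that effects of Dox and of ABHD5 cannot be told apart. Whether the replicates were separate cultures is not stated, so p-values measure the spread between these libraries, which may be technical, and neither is whether the cells are 1 clone. In bulk RNA, a change in the share of cells that express a gene and a change in RNA per cell cannot be told apart. The libraries were made with a 3ʹ mRNA kit, in which a transcript gives reads from its 3ʹ end and counts do not scale with transcript length, and held 3394672 to 7271771 reads on genes. ABHD5 itself had 63.5, 58.0 and 62.8 CPM (counts scaled to a common library size) without Dox and 125.9, 130.8 and 91.7 CPM with Dox, and rose with no overlap between the groups (log2 fold change 0.91, adjusted p = 1.978e-04, edgeR's quasi-likelihood test). Reads of the vector and of the native gene cannot be told apart in these counts. Reads on no annotated gene made up 32.5% to 34.6% of the libraries without Dox and 35.6% to 39.5% of those with Dox, and the part of this in the results was not tested. Of 14 leukocyte markers, 7 had no read in any library, among them CD3E, and PTPRC had at most 1 read; the summed level of the list was 3.13 to 6.20 CPM without Dox and 4.60 to 6.40 CPM with Dox. The prostate markers HOXB13 and KRT18 were read in every library, and 6 of 10 prostate markers were called lower with Dox, where 13.7% of all tested genes were. Of 10 stromal markers, 4 had no read and 2 were tested. COL1A1 was called higher (log2 fold change 1.22), though it had only 14, 5 and 12 counts without Dox and its groups overlapped. It passed edgeR's filter on low counts through the libraries with Dox. LUM went the other way (-0.78) and did not pass. The list summed to 4.96 to 9.60 CPM without Dox and 6.40 to 9.98 CPM with Dox.

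On hg38, 6 of the genes lie in the MHC on chromosome 6: HLA-E (30489509-30494194), HLA-C (31268749-31272130), HLA-B (31353872-31367067), TAP2 (32821833-32838739), TAP1 (32845209-32853816) and TAPBP (33299694-33314284). ERAP1 lies on chromosome 5 (96760810-96808100), B2M on chromosome 15 (44711358-44718851) and NLRC5 on chromosome 16 (56989485-57083531). To see whether reads of these related genes could be told apart, each stretch of 100 bases in the last 600 bases of the main transcript was looked up in all GENCODE 44 transcripts. None of the 501 stretches of any member occurred in a transcript of another gene. This holds for the reference alleles, and the HLA alleles of 22Rv1 were not tested. Exons of CAST, on the opposite strand, reach into the last 500 bases of ERAP1, and those of PSMB8-AS1 into the last 500 bases of TAP1. The use of strand in counting is not stated, so ERAP1 and TAP1 counts are uncertain to this extent.

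Reference promoters from RefSeq (GRCh38.p14) were matched for 7 of the 9 genes, not for HLA-E and NLRC5. The 250 bases before the start are shown for HLA-C and ERAP1, which rose with Dox, and for HLA-B and B2M, which did not pass the test. Capitals mark matches on either strand to 4 motifs: the interferon regulatory factor consensus AANNGAAA, an NF-κB-like motif (GGG, any 2 bases, TT, any base, CC), the CRE-like TGACGC and the CCAAT box. Overlapping matches were merged in capitals.
HLA-C, chr6:31272093-31272342, minus strand: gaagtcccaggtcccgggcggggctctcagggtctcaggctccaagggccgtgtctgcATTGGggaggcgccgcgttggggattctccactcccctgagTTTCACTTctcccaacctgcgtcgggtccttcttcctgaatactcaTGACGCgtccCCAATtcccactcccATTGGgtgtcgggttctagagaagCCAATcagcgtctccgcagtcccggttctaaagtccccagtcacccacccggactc
HLA-B, chr6:31357180-31357429, minus strand: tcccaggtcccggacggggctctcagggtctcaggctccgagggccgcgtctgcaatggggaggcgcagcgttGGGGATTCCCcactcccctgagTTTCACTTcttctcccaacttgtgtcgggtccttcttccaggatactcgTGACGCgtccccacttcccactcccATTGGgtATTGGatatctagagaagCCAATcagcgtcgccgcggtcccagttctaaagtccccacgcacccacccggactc
ERAP1, chr5:96807946-96808195, minus strand: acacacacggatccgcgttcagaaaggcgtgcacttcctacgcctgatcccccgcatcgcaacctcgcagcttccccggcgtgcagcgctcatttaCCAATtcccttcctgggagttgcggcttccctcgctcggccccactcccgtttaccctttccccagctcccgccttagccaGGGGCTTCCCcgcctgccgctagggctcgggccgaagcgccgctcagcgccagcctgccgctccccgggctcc
B2M, chr15:44711267-44711516, plus strand: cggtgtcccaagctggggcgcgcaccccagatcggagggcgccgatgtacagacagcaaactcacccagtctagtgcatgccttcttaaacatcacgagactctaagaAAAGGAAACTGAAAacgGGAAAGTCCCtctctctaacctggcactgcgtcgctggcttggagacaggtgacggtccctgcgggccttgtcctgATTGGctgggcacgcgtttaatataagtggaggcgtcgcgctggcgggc

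The HLA-B and HLA-C windows were alike in 226 of 254 aligned columns (89.0%). Counting each annotated start as a window, 7 of 9 windows of the 7 genes held the interferon regulatory factor consensus (not the other TAP1 start and not the ERAP1 start shown), and it was in 20.3% of all 35116 promoters. An NF-κB-like match was in 5 of 9 windows, HLA-B included, but not in those of HLA-C and TAP2, and in 5.07% of all promoters. TGACGC was in 3 of 9 windows, those of HLA-B, HLA-C and TAP2, and in 7.67% of all, and CCAAT in 5 of 9 and in 32.01%. The motifs were chosen with these promoters already seen, so the shares are a description and not a test. These matches describe the reference letters and are no evidence of binding in these cells.

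To ask whether the class I genes changed with ABHD5 induction, 12233 genes that passed edgeR's filter on low counts were tested together, with Benjamini-Hochberg adjustment over all of them and a threshold of 0.05. Of the 9 class I genes, 8 passed the filter, and NLRC5 did not. HLA-E, ERAP1 and HLA-C rose, by 3.35-fold, 2.03-fold and 1.59-fold as fitted, and 0 of the 8 were called lower by edgeR without a replicate block or by DESeq2, with TAP2 at an unadjusted p under 0.05. This is 3 of 8 genes called (37.5%), where 25.5% of all tested genes were called in either direction and 11.9% were called higher. Of all calls 46.4% were higher, and 65.7% when libraries were scaled by their totals alone. The median log2 fold change was 0.19 over the 8 genes and 0.02 over all tested genes. In 3 of the 8 all libraries with Dox were above all libraries without Dox, as in 19% of all tested genes, and in 1, TAP2, all were below, as in 20.5%. Each of these 3 calls held in all 15 alternative fits.

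**Figure D1:**
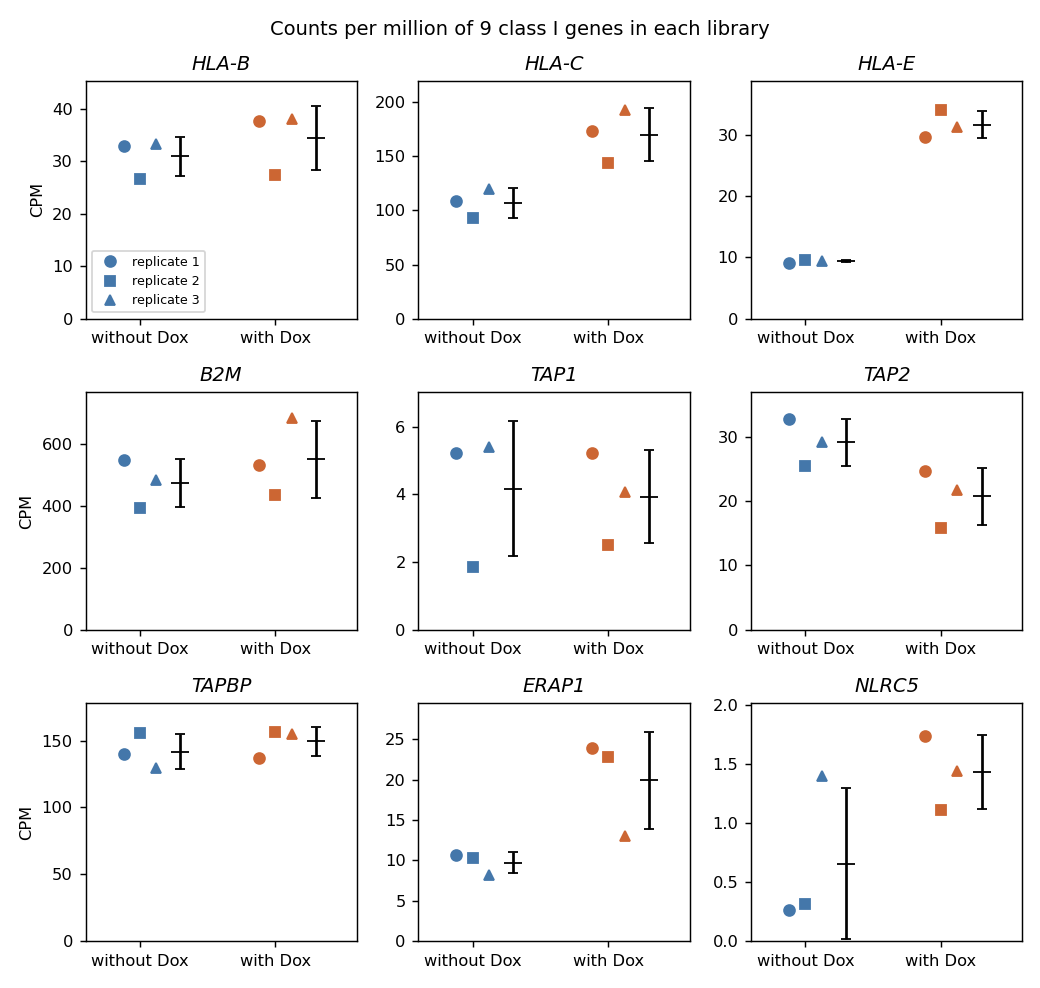
CPM after TMM normalization of each of the 9 genes (y axes from 0, each with its own scale) in the libraries without Dox (blue) and with Dox (orange), one symbol per replicate number, with mean and SD (n = 3) in black. HLA-E, HLA-C and ERAP1 are higher in every library with Dox, TAP2 is lower in every library with Dox, and the groups of the other 5 genes overlap.

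HLA-E, the heavy chain of limited variation that presents leader peptides of other class I chains to the CD94/NKG2 receptors, had the largest change of the 9 genes. Its counts were 35, 31 and 54 in replicates 1, 2 and 3 without Dox and 136, 122 and 238 with Dox. As CPM these were 9.14, 9.61 and 9.43 without Dox and 29.6, 34.0 and 31.3 with Dox, so that the groups were far apart and replicates within each lay close together. By edgeR's quasi-likelihood test its log2 fold change was 1.74 ± 0.19 (SE; adjusted p = 2.65e-06), at percentile 98.6 of all tested genes. Dropping any single library gave values of 1.69 to 1.79.

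HLA-C, a classical heavy chain and the main ligand of the killer-cell immunoglobulin-like receptors, had 108.7, 92.7 and 119.6 CPM without Dox and 173.3, 143.9 and 192.8 CPM with Dox. The lowest library with Dox was above the highest without. By edgeR's quasi-likelihood test its log2 fold change was 0.67 ± 0.14 (SE; adjusted p = 0.00189). HLA-B, the neighbouring classical heavy chain gene, had 32.9, 26.7 and 33.2 CPM without Dox and 37.6, 27.3 and 38.1 CPM with Dox. These groups overlapped, and the log2 fold change of 0.16 did not pass (95% interval -0.21 to 0.52, adjusted p = 0.553, same test). A rise of HLA-B above 1.43-fold or a fall below 0.87-fold lay outside this interval.

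Summed over HLA-B, HLA-C and HLA-E, the heavy chain level was 150.7, 129.0 and 162.2 CPM without Dox and 240.5, 205.1 and 262.2 CPM with Dox. The sum was higher with Dox by 0.68 on the log2 scale and the groups did not overlap (exact permutation test, two-sided, p = 0.10, the smallest that 3 against 3 libraries allow). Entered as 1 row into the fit over all genes, it had a log2 fold change of 0.68 (adjusted p = 0.00115, edgeR's quasi-likelihood test).

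The make-up of the reads of these 3 heavy chains shifted within the libraries. HLA-E took 6.07%, 7.45% and 5.81% of them without Dox and 12.3%, 16.6% and 11.9% with Dox. HLA-B took 21.0% ± 0.74 without Dox and 14.5% ± 1.17 with Dox (SD, n = 3 each), and HLA-C 72.6% ± 1.02 and 71.9% ± 1.70. Ratios within a library do not depend on how libraries are scaled. The ratio of HLA-C to HLA-B reads was 3.30, 3.48 and 3.61 without Dox and 4.61, 5.28 and 5.06 with Dox, a change of 1.44-fold, and that of HLA-E to HLA-B changed by 3.04-fold (exact permutation tests, p = 0.10 each). These pairs were chosen after their values were seen.

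B2M, the light chain that class I heavy chains need to reach the surface, had 548.5, 394.5 and 482.5 CPM without Dox and 533.6, 436.1 and 683.7 CPM with Dox. Replicate 3 with Dox was high, and the groups overlapped. The log2 fold change was 0.22 (95% interval -0.12 to 0.55, adjusted p = 0.357, edgeR's quasi-likelihood test), and with 1 library left out it ranged from 0.03 (without replicate 3 with Dox) to 0.36 (without replicate 2 with Dox). 22Rv1 is known as a mismatch repair-deficient line, and frameshifts in B2M are known in such tumours. Counts per gene do not show the coding sequence, so the intactness of B2M was not tested. Against the sum of HLA-B, HLA-C and HLA-E, B2M reads stood at 3.64, 3.06 and 2.98 to 1 without Dox and 2.22, 2.13 and 2.61 to 1 with Dox. The ratio was lower in each library with Dox, with a log2 difference of -0.48 (exact permutation test, two-sided, p = 0.10, again the smallest possible).

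**Figure D2:**
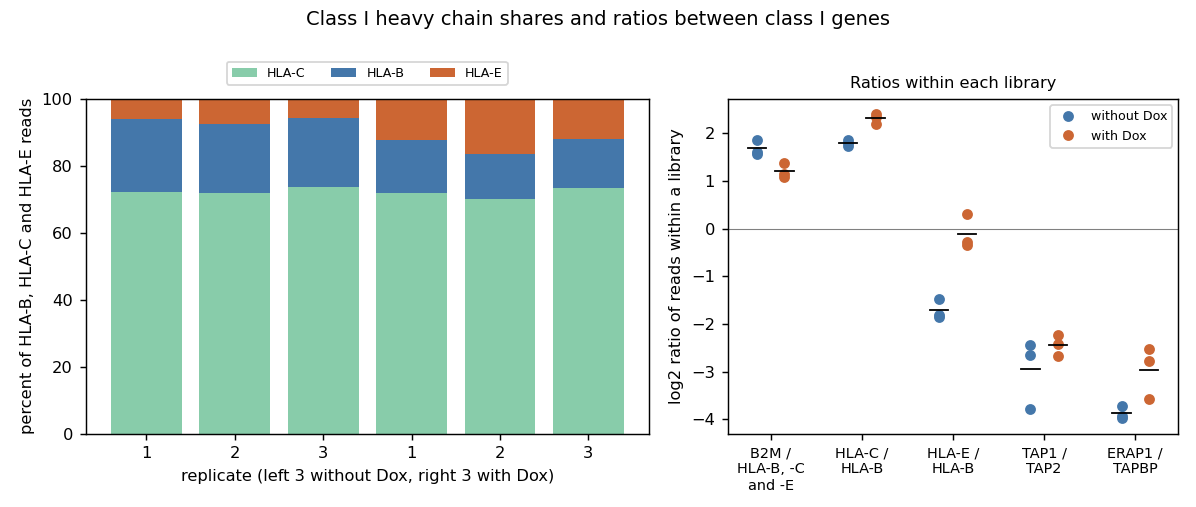
Left, percent of the reads of HLA-B, HLA-C and HLA-E (y axis) given by each of them in each library (x axis, replicate). Right, log2 ratios of reads (y axis) for 5 pairs, each point a library without Dox (blue) or with Dox (orange) and each line a group mean; the HLA-E share is 5.81% to 7.45% without Dox and 11.9% to 16.6% with Dox, and the TAP1 to TAP2 ratios overlap.

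Of ERAP1, TAP1, TAP2 and TAPBP, which supply and load peptides, ERAP1 rose and the others did not pass in the main fit. ERAP1 had 10.7, 10.2 and 8.20 CPM without Dox and 23.9, 22.8 and 13.004 CPM with Dox. Replicate 3 with Dox stood between the other libraries with Dox and those without. ABHD5 was also lowest there among the libraries with Dox, with 91.7 CPM against 125.9 and 130.8, and the part of this in the ERAP1 value was not tested. By edgeR's quasi-likelihood test the log2 fold change was 1.02 ± 0.26 (SE; adjusted p = 0.00673), and 1.28 without replicate 3 with Dox. CAST, whose exons overlap the ERAP1 3ʹ end on the opposite strand, had 280.3 ± 21.7 CPM without Dox and 271.4 ± 27.5 CPM with Dox (SD, n = 3 each), and its log2 fold change was -0.05. The ratio of ERAP1 to TAPBP reads, a pair chosen after its values were seen, was 0.0764, 0.0657 and 0.0634 without Dox and 0.175, 0.146 and 0.0840 with Dox (exact permutation test, two-sided, p = 0.10).

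TAP1 was sparse, with 20, 6 and 31 counts without Dox and 24, 9 and 31 with Dox. Its log2 fold change of -0.11 had a 95% interval from -0.94 to 0.71, which takes in fold changes from 0.522 to 1.64, and its sign flipped to 0.01 when libraries were scaled by their totals alone. TAP2 had 32.7, 25.4 and 29.2 CPM without Dox and 24.6, 15.9 and 21.7 CPM with Dox. The groups did not overlap, yet the log2 fold change of -0.48 (95% interval -0.88 to -0.08, unadjusted p = 0.0205) missed the threshold after adjustment (adjusted p = 0.0708, edgeR's quasi-likelihood test). With the replicate number as a block it passed (-0.49, adjusted p = 0.0360, same test). The TAP1 to TAP2 ratio of reads was 0.16, 0.073 and 0.19 without Dox and 0.21, 0.16 and 0.19 with Dox, and these overlapped (exact permutation test, two-sided, p = 0.40).

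TAPBP had 140.3, 155.7 and 129.3 CPM without Dox and 137.0, 156.4 and 154.7 CPM with Dox. Among the 8 tested genes its spread between replicates was the smallest after that of HLA-E, and it had a log2 fold change of 0.08 (95% interval -0.19 to 0.34, adjusted p = 0.694, edgeR's quasi-likelihood test). NLRC5 had 1, 1 and 8 counts without Dox and 8, 4 and 11 with Dox. A pair of libraries without Dox were within the limit of 3 counts, and the groups overlapped at 1.40 CPM in replicate 3 without Dox and 1.11 CPM in replicate 2 with Dox. Without the filter on low counts, its log2 fold change was 0.92 and did not pass (adjusted p = 0.458, edgeR's quasi-likelihood test; 17.6% of 19356 genes were called in that fit).

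**Figure D3:**
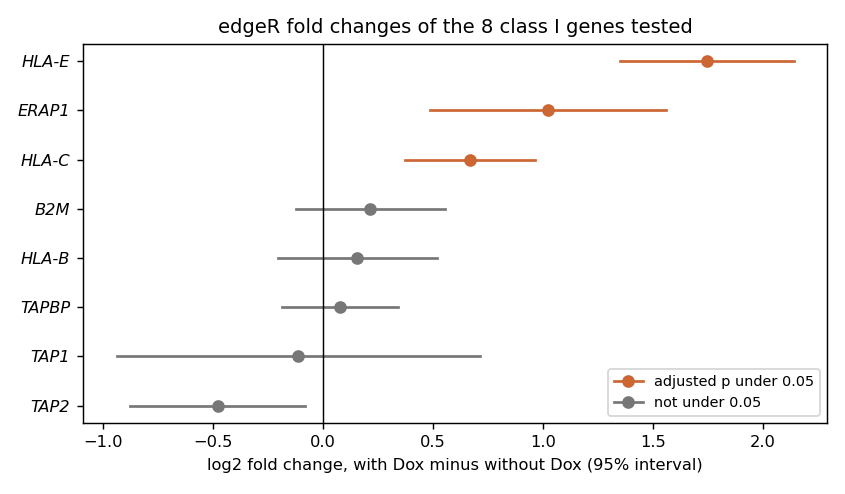
Log2 fold change with Dox minus without Dox (x axis) with its 95% interval from edgeR's quasi-likelihood test for the 8 class I genes tested (y axis); orange marks an adjusted p under 0.05. HLA-E, ERAP1 and HLA-C lie above 0, the intervals of B2M, HLA-B, TAPBP and TAP1 include 0, and that of TAP2 lies below 0 without passing after adjustment.

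The spread between replicates was shared by several genes. For 5 of the 8 tested genes, namely HLA-B, HLA-C, B2M, TAP1 and TAP2, the libraries with replicate number 2 were lowest in both conditions. These were also the least deep libraries of their conditions, and the part of depth in this order was not tested. Over all tested genes, the deviations of the 2 libraries with this number from their group means correlated at 0.25 (Pearson's r). How many of all tested genes had this order was not counted, so it is not read as particular to class I genes. HLA-E, TAPBP and ERAP1 did not have this order.

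The rest of the class I pathway was read from lists of genes grouped by function. The lists were chosen with earlier results of these data known, so their shares called are a description and not a test. Counts of calls in each list are to be read beside all tested genes, of which 25.5% were called, 11.9% higher and 13.7% lower. Of the other class I-like heavy chains, 6 of 15 were tested, and 1, MR1, was called (16.7%). MR1, which presents vitamin metabolites to MAIT cells and also pairs with B2M, had 10.4 ± 1.89 CPM without Dox and 28.8 ± 2.47 CPM with Dox (SD, n = 3 each), or 1.49 as a log2 fold change (adjusted p = 3.260e-05, edgeR's quasi-likelihood test). Of 12 tested genes of the loading complex and endoplasmic reticulum quality control, 0 were called by edgeR's quasi-likelihood test or by DESeq2, with 2 at an unadjusted p under 0.05 by either, and 2 (SPPL3 and MOGS, higher) when libraries were scaled by their totals alone. CALR and PDIA3, chaperones of the peptide-loading complex, had log2 fold changes of -0.15 and -0.22.

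Of the immunoproteasome and activator list, 1 of 6 tested genes was higher and 1 lower (33.3% called, against 25.5% of all tested genes). PSMB8, an interferon-inducible catalytic subunit, passed the filter on low counts through the libraries with Dox. It had 9, 5 and 6 counts without Dox and 20, 12 and 29 with Dox (log2 fold change 1.26, adjusted p = 0.0336, edgeR's quasi-likelihood test). This call was lost without replicate 2 or 3 without Dox and without replicate 1 or 3 with Dox (log2 fold change 0.95 to 1.28, adjusted p = 0.0596 to 0.191, same test), and also by DESeq2 (adjusted p = 0.0930) and in the deposited normalized values (limma-trend, adjusted p = 0.0583). PSMB9, next to TAP1, had 1 to 8 counts without Dox and 4 to 13 with Dox and was not tested, and PSMB10 had a log2 fold change of -0.14 that did not pass. POMP, an assembly factor of all proteasomes, had -0.47 (adjusted p = 0.00780, same test). Of 8 cytosolic peptidases, DPP3 was higher (0.67) and BLMH (-0.43) and THOP1 (-0.46) were lower (37.5% called, against 25.5% of all tested genes). Each of these 3 calls was lost in 3 or 4 of the 6 fits that left out 1 library, with adjusted p of 0.0618 to 0.133 for DPP3, 0.0645 to 0.0920 for BLMH and 0.0892 to 0.174 for THOP1 (same test); DPP3 kept its call without replicate 2 of either condition, BLMH without replicate 3 of either condition or replicate 2 with Dox, and THOP1 without replicate 3 of either condition.

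Of 10 factors that sit at class I promoters, RFX5 was higher, and ATF1 and USF2 were lower (30% called, against 25.5% of all tested genes). RFX5, the DNA-binding subunit of the RFX complex that holds NLRC5, had a log2 fold change of 0.59 (adjusted p = 0.0278, edgeR's quasi-likelihood test), lost when any one of the 3 control libraries or replicate 3 with Dox was left out (0.39 to 0.64, adjusted p = 0.0565 to 0.160, same test). ATF1 had -0.77 and USF2 had -0.38; the latter was lost without replicate 1 of either condition or replicate 2 with Dox (adjusted p = 0.0920 to 0.158, same test). Of 20 genes of interferon and NF-κB signalling, 3 were higher, 1 was lower and 16 did not pass. This is 20% called, where 25.5% of all tested genes were called in either direction and 11.9% were called higher. STAT3 rose by 1.05 on the log2 scale, from 24.9 ± 3.64 to 51.1 ± 4.58 CPM (SD, n = 3 each). IRF7 had 6, 3 and 13 counts without Dox and 17, 18 and 42 with Dox, and passed the filter on low counts through the libraries with Dox. Its log2 fold change was 1.49, with its call lost when control replicate 1 or 2 was left out (1.43 and 1.26, adjusted p = 0.0517 and 0.0604, same test). STAT2 had 0.56, with its call lost when control replicate 2 was left out (0.45, adjusted p = 0.0825, same test). NFKBIA, the inhibitor of NF-κB and itself one of its targets, had -0.67. IRF1, an interferon-γ-induced factor that drives class I genes, had -0.42 and did not pass.

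Of 26 interferon-stimulated genes, 9 passed the filter, of which 3 were higher, 1 was lower and 5 did not pass the test. This is 44.4% of these 9 called, where 25.5% of all tested genes were called in either direction and 11.9% were called higher. The median log2 fold change of the list was 0.09. GBP2 rose by 2.56, IFITM3 by 1.01 and BST2 by 0.92 on the log2 scale. GBP2 had 3, 2 and 9 counts without Dox and 21, 26 and 57 with Dox. It passed the filter on low counts through the libraries with Dox, so its fold change rests on few counts without Dox. SAMHD1 had -0.73, lost in 5 of the 6 fits that left out 1 library (all but that without replicate 2 with Dox; adjusted p = 0.0706 to 0.105, same test). CXCL10 had no read in any library, and IFIT1 had at most 5. Of 12 tested genes known to silence class I genes or lower their surface level, 1 was higher, 2 were lower and 9 did not pass. This is 25% called, near the 25.5% of all tested genes, and the median log2 fold change of the list was 0.007. EZH2, the catalytic subunit of the PRC2 repressor, had a log2 fold change of -0.95 and DNMT1, the maintenance DNA methyltransferase, -0.70. NBR1, an autophagy receptor, had 0.40, lost in 5 of those 6 fits (all but that without replicate 3 with Dox; adjusted p = 0.0592 to 0.105, same test).

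Over the 6 libraries, the genes of these lists whose log2 CPM was most like the mean of the 8 tested class I genes were JAK1 (Pearson's r 0.98), BST2 (0.97), STAT2 (0.94), SPPL3 (0.94) and PSMB8 (0.87), of 92 listed genes. The 6 points share the difference between conditions and are given as a description.

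**Figure D4:**
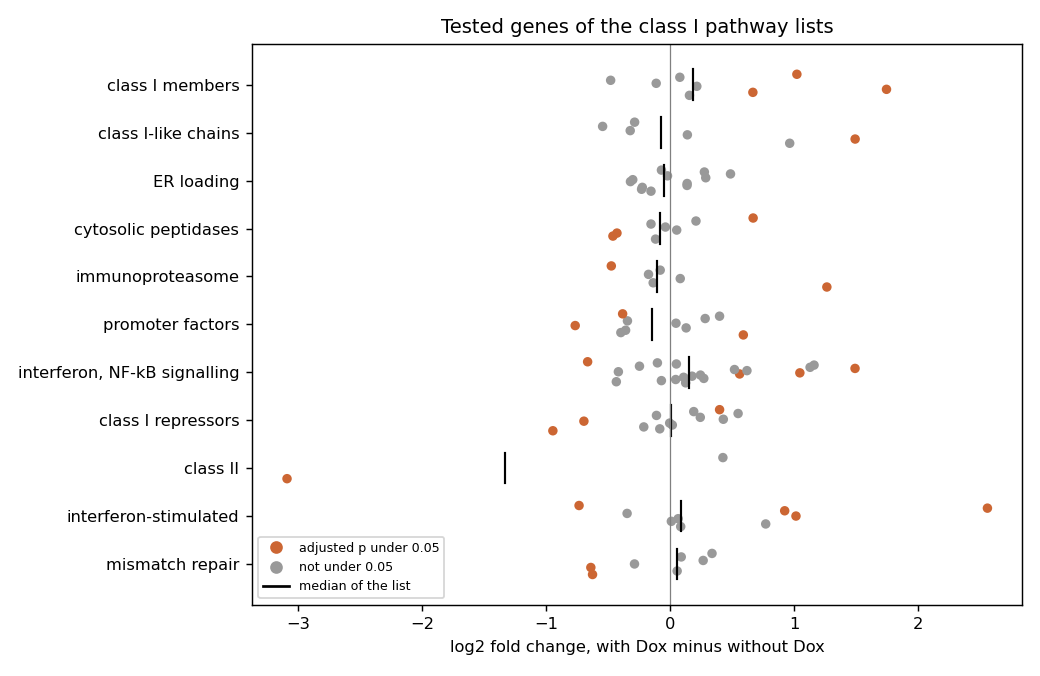
Log2 fold change with Dox minus without Dox (x axis) of every tested gene of the class I genes and 10 pathway lists (y axis), marker lists not drawn, orange where the adjusted p was under 0.05 in edgeR's quasi-likelihood test, with the list's median as a black line. Of the lists drawn, class II has a median of -1.33, over 2 genes of which 1 lies above 0, and the others lie between -0.15 and 0.19. The class I genes have a median of 0.19, and no gene of the loading list is orange.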

How the data were processed

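Total RNA was sequenced as 6 libraries of 3ʹ mRNA; the kit is the REV version in the methods and the FWD version in the labels. Per the paper and the submitters' processing notes, the authors used CASAVA 1.8.2, FastQC, STAR on hg38 and HTSeq; annotation and strand use are not stated. They deposited raw counts per gene and, per library, a normalized signal scaled by a method that is not stated, used here only as an alternative (limma-trend, log2 with a pseudocount of 1). Rows that name no gene were left out: these held 32.5% to 39.5% (no gene) and 3.05% to 3.37% (ambiguous) of the reads of a library.

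The test of the counts was that of edgeR 4.0.16 (TMM, filterByExpr, quasi-likelihood test, Benjamini-Hochberg over all genes) in R 4.3.3; limma 3.58.1 and DESeq2 1.42.0 served alternatives. CPM use TMM library sizes. On simulated counts of 12233 genes, of which 200 were changed, 77% of 2-fold changes were called. In the data 3125 genes were called, so this share does not give the power of the test here. Sums (over HLA-B, HLA-C and HLA-E, fewer genes than planned) and ratios were compared by exact permutation. Some listed genes are not reported here. Promoters were aligned with Biopython 1.88. Members, lists and motifs were chosen with earlier results of these data known, the motifs also with the promoters seen. Named are all members, up to 3 listed genes called per direction and list, genes fixed by role, and those most like the members. 2 of 14 listed repressor genes were not matched in the table. Replicates differed beyond sampling noise (chi-square per degree of freedom 4.35 to 12.2).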

Additional observations from a re-analysis of the deposited data

How the results depend on the processing

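Of the class I genes, 3 passed the threshold in each of 15 alternatives, apart from 4 with the replicate block, where TAP2 also passed (log2 fold change -0.49, adjusted p = 0.0360, edgeR's quasi-likelihood test). The log2 fold change of HLA-E stayed between 1.69 and 1.87, of HLA-C between 0.56 and 0.79 and of ERAP1 between 0.85 and 1.28. That of TAP1 reversed under library totals alone (0.0080), and lay between -0.42 and 0.14 with 1 library left out; that of PSMB10 lay between -0.29 and 0.13 in these fits. The cause was not tested. The heavy chain sum, which cannot pass in the permutation test by its size, passed as 1 row of the edgeR fit (0.68, adjusted p = 0.00115) and with the replicate block there (0.68, adjusted p = 1.367e-04). Replicate numbers paired the libraries weakly at most (correlations of same-numbered deviations -0.01, 0.25 and 0.09). Only replicate 2 correlated best with its own number. Under library totals alone the median of all genes moved from 0.02 to 0.14, and 65.7% in place of 46.4% of calls were higher. Genes called numbered 2181 to 3537 over the alternatives, against 3125. Calls of BLMH, THOP1, USF2 and SAMHD1 were lost under library totals alone (adjusted p = 0.0862, 0.128, 0.141 and 0.0713), those of THOP1 and USF2 under upper-quartile normalization (0.0731 and 0.0685), that of THOP1 also among genes with 10 or more counts in each library (0.0558) and in the deposited normalized values (0.0561), and that of SAMHD1 by DESeq2 (0.0654). Calls in the pathway lists numbered 29 of 92 tested genes under library totals (21 higher) against 23 of 92 in the main fit (11 higher). Under library totals 3315 of all 12233 tested genes were called, 2179 of them higher, so calls moved upward over all genes too. In the main fit 25.5% of all tested genes were called, and 11.9% were called higher, so the lists lay near the share of all genes there. TAP1 had 6 to 31 counts in a library and NLRC5 1 to 11, which limits the precision of both.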

Other observations

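Class II genes, which present peptides to CD4 T cells, were near the limit of detection for the most part: 2 of 15 were tested, and CD74, HLA-DRA, HLA-DPA1 and HLA-DOA had no read in any library. HLA-DMB, which encodes the beta chain of a peptide exchange factor for class II, had 41, 35 and 48 counts without Dox and 8, 2 and 8 with Dox. Its log2 fold change was -3.09 (adjusted p = 1.219e-05, edgeR's quasi-likelihood test). It passed the filter on low counts through the libraries without Dox. HLA-DMA, which encodes the partner chain, did not fall with it. It had 3, 0 and 4 counts without Dox and 3, 5 and 26 with Dox, its groups overlapped, and it was not tested. HLA-DQB1, singled out after its values were seen, had 0, 1 and 0 counts without Dox and 17, 7 and 27 with Dox, at least 4.11-fold higher against a limit of 3 counts per library. The filter on low counts left HLA-DQB1 out of the test, and CIITA, the class II transactivator, had at most 2 reads.

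Of 7 mismatch repair genes, 2 were lower and 5 did not pass, with a median log2 fold change of 0.06. This is 28.6% called, near the 25.5% of all tested genes. MSH6, a subunit of the mismatch recognition complex and one of those lower, had 428, 343 and 692 counts without Dox and 332, 294 and 494 with Dox, a log2 fold change of -0.64 (adjusted p = 0.00165, same test). 3ʹ reads do not show whether its coding sequence is whole.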
